A study of Homo sapiens with 6 samples.

Results

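The SLC25 genes encode the mitochondrial carrier family, and they were taken here as every row of the count table whose symbol begins with SLC25A, which gave 48 of 19845 gene symbols. RNA was sequenced from the MLL-rearranged human line Molm13, derived from acute myeloid leukemia and made to express Cas9. All 6 cultures carried Cas9 and a guide RNA in the lentiviral ipUSEPR vector and were selected in puromycin. There were 3 sgCtrl libraries (#1, #2 and #3) and 3 sgCOX4I1 libraries (#1, #2 and #3). Within a group each number stands for a different guide sequence, so guide and culture cannot be told apart. The comparison asks whether depletion of COX4I1, a nuclear-encoded subunit of cytochrome c oxidase, comes with other carrier mRNA levels. All libraries come from 1 cell line and from selected cultures, so each value is a mean over a culture. Fewer cells expressing a gene and less RNA per cell cannot be told apart in such bulk libraries.

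Mitochondrial carriers are small proteins of the inner mitochondrial membrane, built from repeated pairs of membrane-spanning helices, that move nucleotides, phosphate, carboxylates, amino acids, cofactors and iron between cytosol and matrix. They alternate between a state open to the cytosol and a state open to the matrix, and many exchange 1 solute for another. The ADP/ATP and phosphate carriers feed the ATP synthase, whose driving force is the proton gradient to which cytochrome c oxidase contributes.

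Total counts were between 17241014 and 30861943 per library, which limits a gene with 0 counts to between 0.0972 and 0.174 CPM (a gene's count scaled to a common library size) from counting error alone. Values per library are CPM after TMM scaling, which corrects for library composition. COX4I1 itself stood at 513, 502 and 463 CPM in sgCtrl #1, #2 and #3 and at 132, 378 and 133 CPM in sgCOX4I1 #1, #2 and #3. The groups did not overlap, and sgCOX4I1 #2 kept the most COX4I1 mRNA. Each guide had a single library, and whether the guide or the culture accounts for this was not tested. The log2 fold change was -1.21 (SE 0.29, adjusted p = 0.0512 by edgeR), and without sgCOX4I1 #2 it was -1.89 (adjusted p = 3.37e-06). Library #2 was singled out by its own COX4I1 value, so a larger change without it follows from that choice. With any other single library left out, the adjusted p by edgeR was between 0.0193 and 0.272. Of the myeloid markers, 10 of 10 were detected, with a summed level of 3364 to 4155 CPM in sgCtrl and 3865 to 5028 CPM in sgCOX4I1, while the erythroid markers HBB and HBA1 had 0 counts in every library, the 3 B cell markers summed to at most 1.09 CPM, the 3 fibroblast markers to at most 1.6 CPM and the 3 epithelial markers to at most 3.65 CPM. The T cell list was carried by CD4, which myeloid cells also express, with CD3D at 0.

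The carriers ranged from abundant mRNAs to genes with almost no counts, and the sequences upstream of a pair of genes from each end are shown first for comparison. Each is the stretch of 250 bases before the start of the gene in RefSeq (GRCh38.p14), read 5′ to 3′ on the strand of the gene, with CpG dinucleotides in capitals. SLC25A6 (chrX:1392114-1392363, minus strand) and SLC25A5 (chrX:119468194-119468443, plus strand) encode the main ADP/ATP carriers of these cells. The last bases of the SLC25A5 window lie inside the first exon of the GENCODE gene model.
SLC25A6: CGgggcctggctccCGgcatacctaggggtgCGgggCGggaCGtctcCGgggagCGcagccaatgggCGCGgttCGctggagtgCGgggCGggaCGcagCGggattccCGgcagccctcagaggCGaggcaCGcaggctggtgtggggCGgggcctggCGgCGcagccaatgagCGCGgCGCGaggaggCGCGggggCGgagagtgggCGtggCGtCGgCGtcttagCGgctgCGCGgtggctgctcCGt
SLC25A5: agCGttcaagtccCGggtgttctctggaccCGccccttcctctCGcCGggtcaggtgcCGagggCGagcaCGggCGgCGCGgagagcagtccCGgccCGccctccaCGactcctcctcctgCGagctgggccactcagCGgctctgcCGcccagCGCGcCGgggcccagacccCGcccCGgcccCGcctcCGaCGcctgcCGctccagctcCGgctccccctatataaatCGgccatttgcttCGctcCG
SLC25A31 (chr4:127730150-127730399, plus strand) encodes the ADP/ATP carrier known from testis, and SLC25A47 (chr14:100323089-100323338, plus strand) encodes a carrier known from liver. Neither had more than 1 count in any library.
SLC25A31: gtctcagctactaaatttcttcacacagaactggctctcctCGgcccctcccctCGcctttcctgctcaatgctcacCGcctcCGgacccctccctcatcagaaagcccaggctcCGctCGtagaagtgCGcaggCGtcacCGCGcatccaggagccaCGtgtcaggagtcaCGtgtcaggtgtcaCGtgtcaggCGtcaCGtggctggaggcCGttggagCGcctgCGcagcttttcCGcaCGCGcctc
SLC25A47: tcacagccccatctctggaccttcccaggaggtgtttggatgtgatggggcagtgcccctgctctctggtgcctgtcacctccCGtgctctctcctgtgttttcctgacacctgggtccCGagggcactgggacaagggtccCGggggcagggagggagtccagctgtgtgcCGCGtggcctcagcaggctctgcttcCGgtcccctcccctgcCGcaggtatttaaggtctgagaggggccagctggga

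The SLC25A6 window held 35 CpG and the SLC25A5 window 30, against 21 for SLC25A31 and 7 for SLC25A47. SLC25A31, with 1 count over all libraries, thus had a CpG count above the median of all windows given below. A RefSeq window was matched for 40 of the 48 carriers. With CpG-rich defined as at least 50% G+C and an observed over expected CpG ratio of at least 0.6, 24 of 33 windows (72.7%) were CpG-rich among carriers that passed the filter on low counts described below. The number was 3 of 7 (42.9%) among those that did not pass, and 45.1% of all 34959 windows. Each carrier was given 1 window, the nearest to its GENCODE gene start, with no limit on the distance. Some windows lay well inside the GENCODE gene model, before another RefSeq start, among them those of SLC25A12, SLC25A26 and SLC25A48. The SLC25A26 window began at 66220492 on chromosome 3 and the gene model at 66133610. The set of all windows, here and below, was not cut to 1 per gene or to expressed genes. The median CpG count was 25 for carriers that passed, 13 for those that did not and 11 for all windows. A total of 3 short motifs were searched on both strands. The TATA box TATAAA was found in 3 of 40 windows (7.5%, against 10.7% of all windows), in SLC25A5, SLC25A18 and SLC25A26. The E-box CACGTG was found in 7 of 40 windows (17.5%, against 6.35% of all windows), in SLC25A13, SLC25A31, SLC25A33, SLC25A36, SLC25A38, SLC25A46 and SLC25A51, and the SLC25A31 window held 4 copies in a short repeat. TGATGCAA, a site bound by ATF4 and related factors, was in 0 of 40 windows (0.769% of all windows). None of these motifs contains another, but CACGTG contains a CpG. The median CpG count was 22 for the 40 carrier windows and 11 for all windows, so the E-box shares are not matched for CpG content. A match or its absence is a description of the window only.

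**Figure D1:**
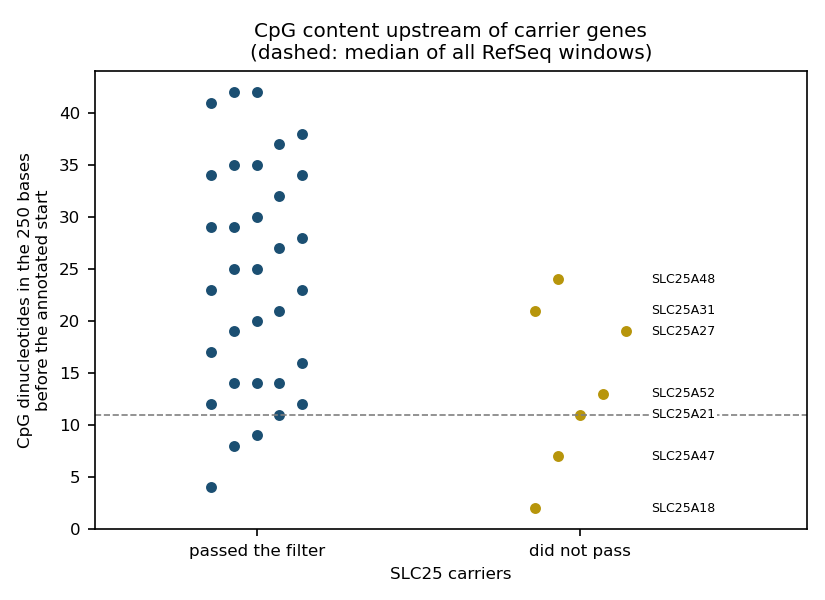
Number of CpG dinucleotides (y axis) in the 250 bases before the RefSeq start nearest to the annotated gene start. The x axis separates carriers that passed the filter on low counts from those that did not. Each point is a gene, side offsets within a group only separate points, and the dashed line is the median of all RefSeq windows, 11. Carriers that passed span 4 to 42 CpG, and those that did not span 2 to 24.

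Molm13 cells expressed most of the family: 39 of the 48 carriers passed the filter on low counts, and the same number had at least 10 counts in every library. A stricter limit of at least 1 CPM in every library left 36. By mean CPM over the 6 libraries, 6 carriers lay above 100, 24 between 10 and 100, and 9 between 1 and 10. The remaining 9 all lay below 1 CPM. The detected set covered every role considered below.

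The 9 carriers that did not pass included several known from particular tissues. SLC25A21, the oxodicarboxylate carrier, and SLC25A52, a paralog of the NAD carrier SLC25A51, had 0 counts in all 6 libraries. SLC25A31, SLC25A47 and SLC25A48 each had 1 count in 1 library. SLC25A27, an uncoupling-protein-like carrier known from brain, had 2, 2 and 0 counts in sgCtrl and 2, 0 and 4 in sgCOX4I1. The second ornithine carrier SLC25A2 had 7, 1 and 0 counts in sgCtrl and 4, 3 and 2 in sgCOX4I1. The second glutamate carrier SLC25A18 had 2, 2 and 5 counts in each group. The ATP-Mg/phosphate carrier SLC25A41 had 2, 6 and 6 counts in sgCtrl and 1, 1 and 9 in sgCOX4I1. At these counts no difference between the groups was detectable.

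To set carriers beside each other, CPM was divided by the length of each gene's merged exons in kilobases (GENCODE 44). On this length-scaled scale SLC25A6, an ADP/ATP carrier encoded in the pseudoautosomal region shared by the X and Y chromosomes (X, 1386152 to 1392113, minus strand), stood at 863 ± 32.2 CPM per kilobase (SD, n = 6 libraries). SLC25A5, its paralog on X (119468422 to 119471396, plus strand), stood at 306 ± 16.3. SLC25A3, the phosphate carrier on chromosome 12 (98593591 to 98606379, plus strand), stood at 94.8 ± 7.29. These carriers of ADP, ATP and phosphate lay above all others in every library.

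The next levels belonged to SLC25A1, the citrate carrier, at 41.8 CPM per kilobase, SLC25A11, the oxoglutarate-malate carrier, at 33.4, SLC25A39, a glutathione carrier, at 32.7, and SLC25A37, mitoferrin-1, at 28.1. SLC25A23, an ATP-Mg/phosphate carrier, stood at 22.8. At the low end of the carriers that passed were SLC25A34 at 0.36, SLC25A53 at 0.19 and SLC25A45 at 0.16, whose transported solutes are less well known. Of the 38 neighbouring pairs in the order, 9 had library values that did not overlap, so most neighbours did not differ beyond their spread. The upper steps, from SLC25A6 to SLC25A5, to SLC25A3 and to SLC25A1, were without overlap.

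The order depended on the length used. SLC25A3 has long annotated untranslated exons, with 8896 bases of merged exons, 5984 in its canonical transcript and 1083 of coding sequence, against 1553, 1451 and 894 for SLC25A6. Per kilobase of coding sequence, SLC25A3 stood at 778, above SLC25A5 at 532 and below SLC25A6 at 1499. SLC25A26, the S-adenosylmethionine carrier, had 21792 bases of merged exons and stood at 0.91 CPM per kilobase of these and at 9.78 per kilobase of its canonical transcript.

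**Figure D2:**
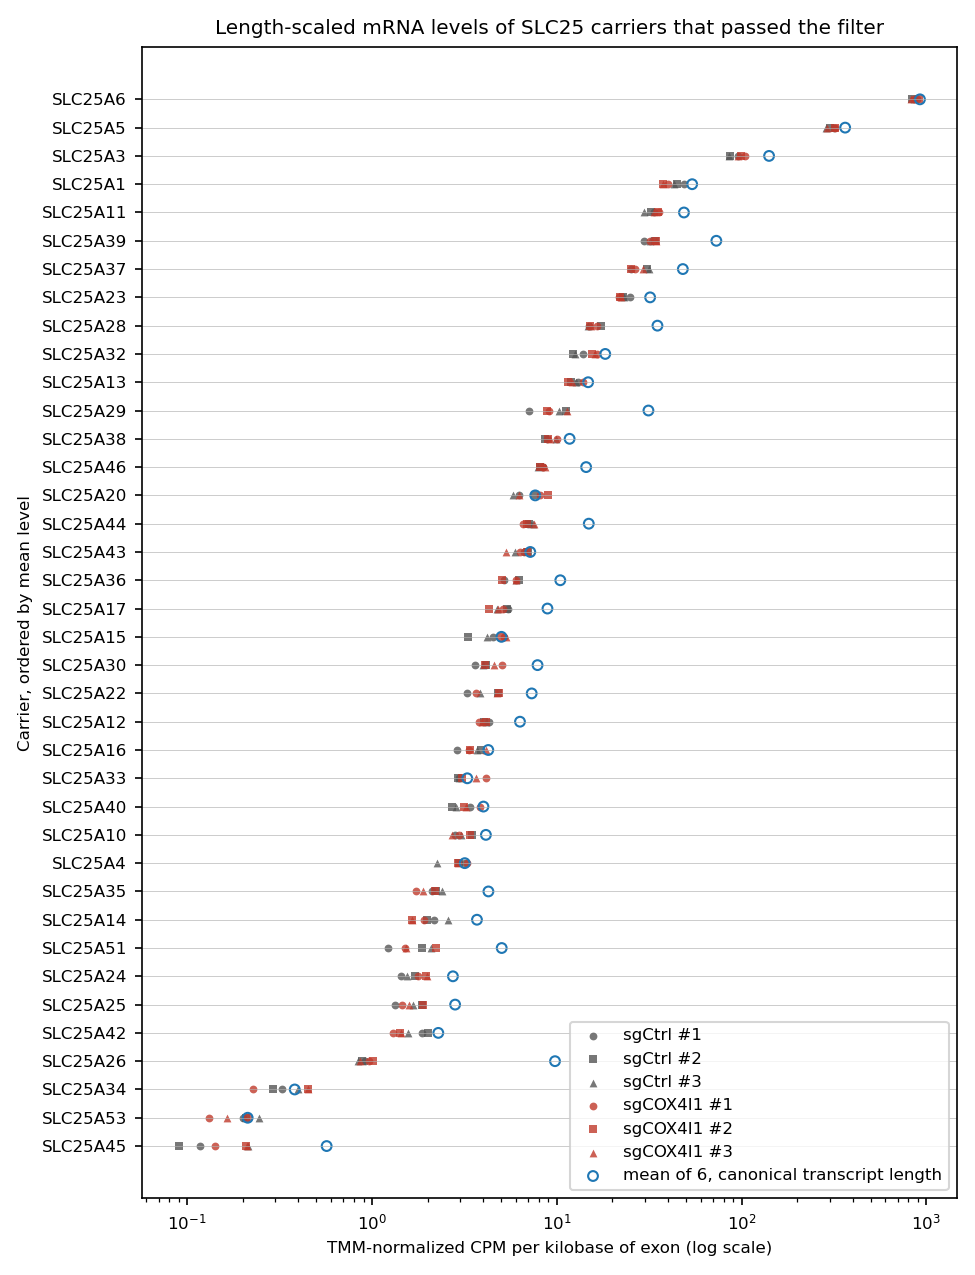
Length-scaled level of 38 of the 39 carriers that passed the filter (y axis, ordered by mean) in TMM-normalized CPM per kilobase of merged exons (x axis, log scale). Filled symbols are single libraries, grey for sgCtrl and red for sgCOX4I1, and open circles are means of 6 with the canonical transcript length. SLC25A6, SLC25A5 and SLC25A3 stand above the rest, and carriers are much further apart than libraries.

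Together the 48 carriers took from 0.394% to 0.418% of all counts in a library. The values were 0.404%, 0.401% and 0.394% in sgCtrl and 0.418%, 0.418% and 0.408% in sgCOX4I1, which did not overlap, and the difference was not tested. In the summed length-scaled level of the family, SLC25A6 held 53.1% to 55.2%, SLC25A5 18.4% to 19.9% and SLC25A3 5.53% to 6.49% across libraries. These ADP/ATP and phosphate carriers made up 78.4% to 80.4% of the family total per kilobase of merged exons, and 65.5% to 68.9% per kilobase of coding sequence, where the share of SLC25A3 was 17.4% to 20.1%. The shares moved more with the length used than between libraries.

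**Figure D3:**
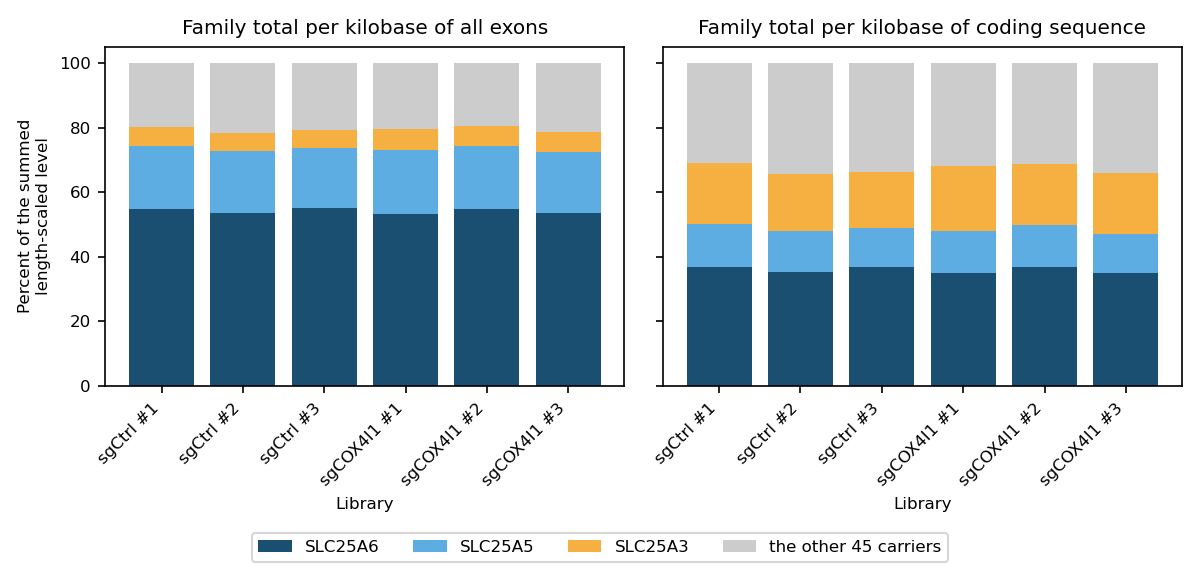
Share of the summed length-scaled level of the family (y axis, percent) held by SLC25A6, SLC25A5, SLC25A3 and the other 45 carriers in each library (x axis), per kilobase of merged exons on the left and of coding sequence on the right. The upper edge of SLC25A3 lies between 78.4% and 80.4% on the left and between 65.5% and 68.9% on the right.

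Between sgCtrl and sgCOX4I1, carrier mRNA levels differed little. None of the 39 carriers tested passed an adjusted p of 0.05 in edgeR's quasi-likelihood test, where 2.08% of all 11861 genes tested did (1.06% higher and 1.02% lower in sgCOX4I1), and none passed at 2-fold, where 0.202% of genes did. At an unadjusted p under 0.05 there were 8 carriers (20.5%), 5 higher and 3 lower in sgCOX4I1, beside 17.3% of all genes (8.9% higher and 8.41% lower). DESeq2 called 1 carrier, SLC25A32, beside 466 of all 11861 genes, and limma-voom called 0, beside 252. The share of carriers was thus near that of all genes.

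The log2 fold changes ran from -0.38 to 0.40 with a median of 0.03, beside a median of -0.0023 for all genes, and 23 of 39 (59%) were above 0, beside 49.4% of all genes. The median size of the change was 0.117 on the log2 scale, beside 0.118 over all genes. The 95% interval lay within a 1.5-fold change in either direction for 33 of 39 carriers (84.6%), beside 77.7% of genes, and within a 2-fold change for 37 (94.9%), beside 91.1%. The exceptions at 2-fold were SLC25A45 and SLC25A53, both near 1 CPM. In 9 carriers (23.1%) the library values of the groups did not overlap, beside 21.6% of all genes (11.2% higher and 10.4% lower). Of these SLC25A11, SLC25A15, SLC25A24, SLC25A32 and SLC25A33 were higher in sgCOX4I1 and SLC25A1, SLC25A14, SLC25A23 and SLC25A42 were lower.

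**Figure D4:**
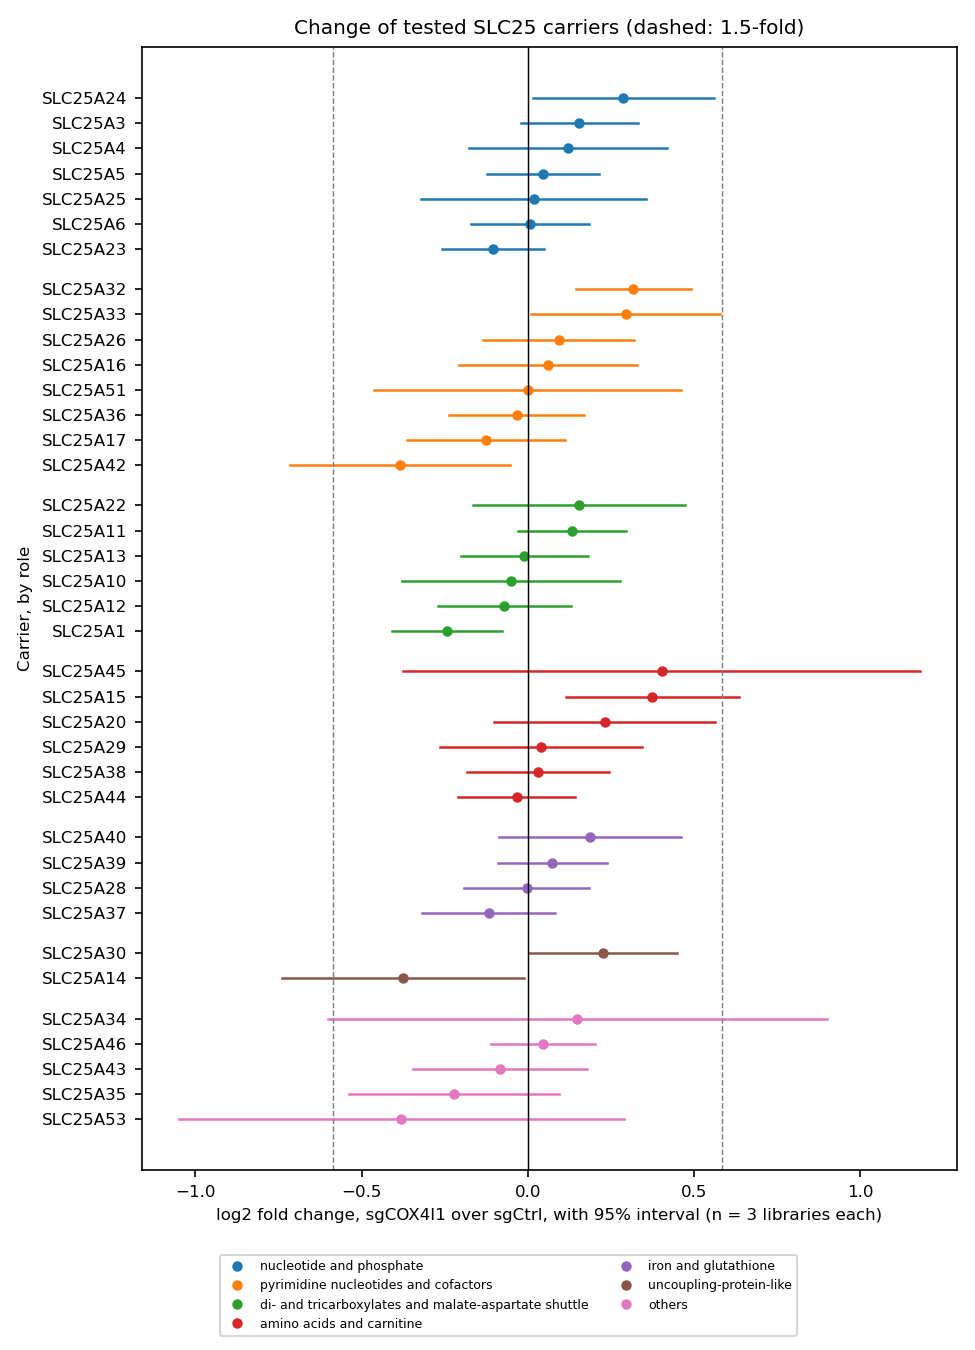
Log2 fold change of 38 of the 39 tested carriers, sgCOX4I1 over sgCtrl (x axis), with its 95% interval, for 3 libraries in each group, ordered by role (y axis, colors). Dashed lines mark a 1.5-fold change, and the points lie between -0.38 and 0.40.

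Among the nucleotide and phosphate carriers, 7 of 9 were tested, 0 were called, and the median log2 fold change was 0.05. SLC25A6 stood at 1383, 1296 and 1331 CPM in sgCtrl and at 1331, 1414 and 1283 CPM in sgCOX4I1. SLC25A5 stood at 494, 465 and 445 against 498, 501 and 449 CPM. The groups overlapped for both, with log2 fold changes of 0.01 (95% interval -0.17 to 0.18) and 0.05 (-0.12 to 0.21). SLC25A4, the ADP/ATP carrier of heart and muscle, stood at 15.3, 14.2 and 10.8 against 15.7, 14 and 14.1 CPM, also overlapping. SLC25A31 had 1 count in sgCtrl #3 and 0 elsewhere.

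SLC25A3, which brings in phosphate for ATP synthesis and also carries copper needed by cytochrome c oxidase, stood at 856, 774 and 763 CPM in sgCtrl and at 931, 888 and 846 CPM in sgCOX4I1. Only sgCtrl #1 reached into the sgCOX4I1 range, and the log2 fold change of 0.16 (SE 0.08, adjusted p = 0.357 by edgeR) did not pass. Of the calcium-regulated ATP-Mg/phosphate carriers, SLC25A24 stood at 9.65, 11.5 and 10.4 against 11.9, 13.2 and 13.3 CPM, with no overlap and a log2 fold change of 0.29 (adjusted p = 0.257). SLC25A23, the most abundant of them, had a mean of 115 ± 5.71 CPM in sgCtrl against 107 ± 1.00 CPM in sgCOX4I1 (SD, n = 3 each). SLC25A25 stood at 9.60 ± 1.58 and 9.76 ± 1.32 CPM.

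Among the carriers of pyrimidine nucleotides and cofactors, 9 of 10 were tested, 0 were called, and the median log2 fold change was 0.03. SLC25A32, described as the carrier of folate and of flavin adenine dinucleotide, lies on chromosome 8 (103398635 to 103415189, minus strand) and had the smallest p of the family. It stood at 50.6, 45 and 45.7 CPM in sgCtrl and at 60.6, 56.6 and 58.9 CPM in sgCOX4I1. Each sgCOX4I1 value was above each sgCtrl value, by 1.25-fold on average. The log2 fold change was 0.32 (SE 0.08, 95% interval 0.15 to 0.49, adjusted p = 0.0588 by edgeR). It passed with DESeq2 (adjusted p = 0.0291), and in edgeR with raw library sizes (0.0495), no filter on low counts (0.0325) or without sgCtrl #1 (0.0233). It also passed with the library number as a replicate block (0.00434). It did not pass with limma-voom (0.0614), with at least 10 counts in every library (0.0571) or in the other leave-one-out fits. Of its exonic bases, 69.7% also belong to a read-through gene model on the same strand and 11.1% to DCAF13 on the opposite strand, and reads of these could not be separated here. DCAF13 itself had a log2 fold change of 0.17 (adjusted p = 0.288).

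SLC25A42, a coenzyme A carrier, stood at 8.66, 9.39 and 7.32 CPM in sgCtrl and at 6.06, 6.63 and 6.72 CPM in sgCOX4I1. The groups did not overlap, with sgCOX4I1 lower (log2 fold change -0.38, SE 0.15, adjusted p = 0.211 by edgeR). SLC25A16, also linked to coenzyme A, stood at 27.5 ± 4.17 and 28.6 ± 3.56 CPM in the same order of groups (SD, n = 3 each). SLC25A33, a pyrimidine nucleotide carrier, stood at 11.4, 11.3 and 11.4 against 15.9, 11.8 and 14.1 CPM, with no overlap although sgCOX4I1 #2 was close to sgCtrl (log2 fold change 0.30, adjusted p = 0.269). Its paralog SLC25A36 stood at 60.2 ± 5.96 and 58.8 ± 5.5 CPM. SLC25A26 stood at 19.2 ± 0.868 and 20.6 ± 1.62 CPM, SLC25A17, a cofactor carrier of peroxisomes, at 20.7 ± 1.6 and 18.9 ± 1.65, and SLC25A51, the NAD carrier, at 5.86 ± 1.53 and 5.93 ± 1.36.

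Among the carriers of di- and tricarboxylates and of the malate-aspartate shuttle, which brings reducing equivalents of NADH into the matrix, 6 of 8 were tested, 0 were called, and the median log2 fold change was -0.03. SLC25A1, which exports citrate for lipid synthesis, stood at 97.0, 89.2 and 85.8 CPM in sgCtrl and at 80.4, 74.8 and 74.6 CPM in sgCOX4I1. The highest sgCOX4I1 value was below the lowest sgCtrl value (log2 fold change -0.24, SE 0.08, 95% interval -0.41 to -0.08, adjusted p = 0.122 by edgeR). SLC25A11 stood at 82.7, 80.1 and 73.4 against 88.3, 87.4 and 83.3 CPM, without overlap in the opposite direction (log2 fold change 0.13, adjusted p = 0.39).

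The aspartate-glutamate carriers of the shuttle overlapped between groups. SLC25A12 stood at 26.2, 24.8 and 25.5 CPM in sgCtrl and at 23.1, 25.5 and 24.3 CPM in sgCOX4I1, and SLC25A13 at 48.3, 44.1 and 47.3 against 51.1, 42.6 and 45 CPM. SLC25A10, the dicarboxylate carrier, stood at 8.15 ± 0.898 and 7.91 ± 0.874 CPM, and 46.6% of its exonic bases are shared with another gene model on the same strand. SLC25A22, a glutamate carrier, stood at 18.3 ± 3.58 and 20.3 ± 3.13 CPM (SD, n = 3 each).

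Among the carriers of amino acids and carnitine, 6 of 9 were tested, 0 were called, and the median log2 fold change was 0.14. SLC25A15, the ornithine carrier of the urea cycle, stood at 18.8, 13.8 and 17.5 CPM in sgCtrl and at 21.6, 21.0 and 22.4 CPM in sgCOX4I1. The groups did not overlap (log2 fold change 0.37, SE 0.12, adjusted p = 0.130 by edgeR), and the gap was smallest against sgCtrl #1, without which the adjusted p was 0.0478. SLC25A20, which takes acylcarnitines into the matrix for fatty acid oxidation, stood at 12.5 ± 1.87 and 14.7 ± 2.64 CPM. SLC25A38, the glycine carrier of heme synthesis, stood at 24.4 ± 1.85 and 24.9 ± 1.44 CPM, and SLC25A44, a branched-chain amino acid carrier, at 52.3 ± 1.66 and 51.0 ± 3.76 CPM. SLC25A29, a carrier of basic amino acids, stood at 70.9 ± 16.1 and 72.7 ± 10.1 CPM, and SLC25A45 at 1.10 ± 0.505 and 1.47 ± 0.307 (SD, n = 3 each).

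All 4 carriers of iron and glutathione were tested and 0 were called, with a median log2 fold change of 0.04. SLC25A37, the mitoferrin known from erythroid cells, stood at 202, 247 and 253 CPM in sgCtrl and at 211, 201 and 235 CPM in sgCOX4I1, while the erythroid markers HBB and HBA1 were at 0 counts. SLC25A28, the mitoferrin of other tissues, stood at 51.1, 59.5 and 50.2 against 56.5, 51.4 and 52.3 CPM. SLC25A39 stood at 105, 120 and 113 against 113, 122 and 121 CPM, and SLC25A40 at 17.3, 13.8 and 14.4 against 19.6, 16.0 and 16.3. The groups overlapped for each of these, and the 95% intervals of their log2 fold changes all lay between -0.32 and 0.46.

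Of the uncoupling-protein-like carriers, SLC25A14 stood at 6.54, 5.97 and 7.71 CPM in sgCtrl and at 5.75, 4.94 and 4.92 CPM in sgCOX4I1, without overlap (log2 fold change -0.38, adjusted p = 0.272 by edgeR). SLC25A30 stood at 24.4, 28.2 and 27.1 against 34.3, 27.7 and 31.1 CPM, where sgCOX4I1 #2 lay among the sgCtrl libraries (log2 fold change 0.23, adjusted p = 0.283). The pair thus differed in the sign of the fitted change. The 5 remaining carriers had log2 fold changes from -0.38 to 0.15, among them SLC25A46, a protein of the outer membrane linked to mitochondrial shape, at 67.3 ± 2.01 and 69.5 ± 2.43 CPM. SLC25A43 stood at 18.5 ± 1.47 and 17.5 ± 2.23 CPM (SD, n = 3 each), SLC25A35 at 8.89 ± 0.551 and 7.66 ± 0.918, SLC25A53 at 1.48 ± 0.165 and 1.15 ± 0.283, and SLC25A34 at 1.13 ± 0.178 and 1.26 ± 0.433.

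**Figure D5:**
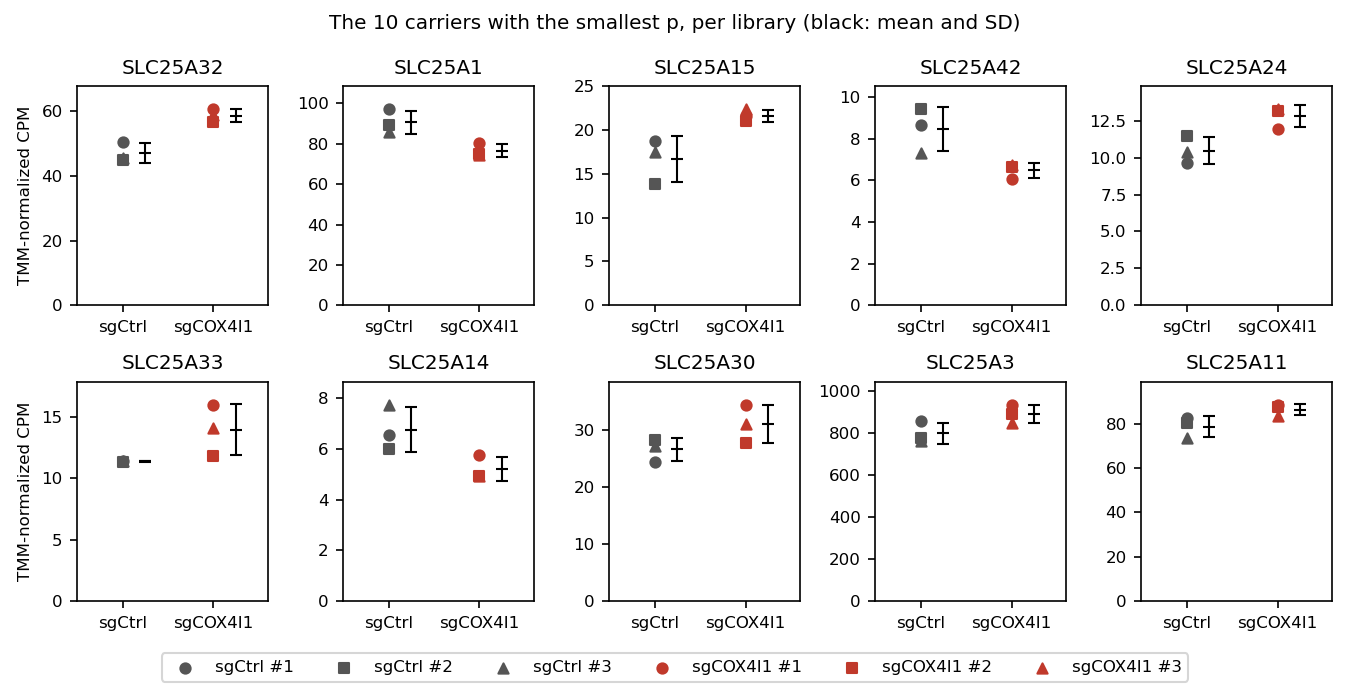
TMM-normalized CPM (y axes, from 0) in each library for the 10 carriers with the smallest p, by group (x axes), with the mean and SD of 3 libraries in black. The groups are separate in SLC25A32, SLC25A1, SLC25A15, SLC25A42, SLC25A24, SLC25A33, SLC25A14 and SLC25A11, and overlap in SLC25A30 and SLC25A3.

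The sgCOX4I1 library that kept the most COX4I1 mRNA, #2, was the one nearest to the sgCtrl mean for 12 of the 39 carriers (30.8%) and for 33.0% of all genes tested. Among the 8 carriers at an unadjusted p under 0.05, #2 was nearest for 4, #1 for 3 and #3 for 1. These 8 were picked by p from the same libraries, and no share of all genes at that p is given beside them. Without sgCOX4I1 #2, 0 carriers passed an adjusted p of 0.05 by edgeR, beside 51 of all 12001 genes then tested. The values of SLC25A32 (log2 fold change 0.34, adjusted p = 0.141) and SLC25A1 (-0.23, adjusted p = 0.288) kept their sign.

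Paralogs that carry the same solutes divided their group's length-scaled level much alike in both groups of libraries. SLC25A6 held 73.9 ± 0.792% of the ADP/ATP group in sgCtrl and 73.4 ± 0.702% in sgCOX4I1, and SLC25A5 held 25.8 ± 0.756% and 26.3 ± 0.688% (SD, n = 3 each). SLC25A13 held 75.1% and 75.8% of the aspartate-glutamate pair, SLC25A37 65.0% and 63.2% of the mitoferrin pair, and SLC25A39 91.4% and 90.8% of the glutathione pair. SLC25A22 held 99.2% and 99.4% of the glutamate pair, SLC25A15 97.7% and 98.1% of the ornithine pair and SLC25A51 all of the NAD pair. A single paralog thus held nearly all of the counted level in several of these groups. Reads shared with similar genes or pseudogenes may affect such a split, which was not tested.

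The groups of libraries did not overlap in 2 of the 8 paralog groups with a test, and no matching share over all genes was computed. The CPM of SLC25A33 and of SLC25A24 did not overlap either, so these shares are not separate evidence. The share of SLC25A33 in the pyrimidine nucleotide pair was 36.4%, 31.9% and 32.9% in sgCtrl and 40.7%, 37.6% and 37.8% in sgCOX4I1. The share of SLC25A24 among the ATP-Mg/phosphate carriers was 5.15%, 6.40% and 5.82% in sgCtrl and 7.09%, 7.56% and 7.62% in sgCOX4I1. Both reached p = 0.1 in the exact two-sided permutation test, the smallest this design allows, and 0.4 after Benjamini-Hochberg adjustment over the 8 groups with a test. Per kilobase of coding sequence SLC25A33 held 15.6% and 18.6% of its pair, so the size of a share rests on the length used and the order of the groups did not change.

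The machinery around the carriers was taken from 5 lists with 35 genes, of which 34 were tested. Only ABCB10, a transporter of the inner membrane linked to heme synthesis, passed, and 0 genes were lower at an adjusted p of 0.05, beside 1.06% higher and 1.02% lower over all genes. ABCB10 stood at 108, 106 and 93.5 CPM in sgCtrl and at 140, 118 and 138 CPM in sgCOX4I1 (log2 fold change 0.36, SE 0.09, adjusted p = 0.0455 by edgeR). The groups did not overlap, and the call was lost in 5 of the 6 fits that left out a library, where the adjusted p was between 0.0624 and 0.219. Over the 34 genes the median log2 fold change was 0.08 and 26 were above 0, beside 49.4% of all genes. Library values were separate between groups in 7 of these 34 genes (20.6%), beside 21.6% of all genes, namely for UCP3, lower in sgCOX4I1, and for ABCB10, MCU, AGK, TOMM70, VDAC1 and GOT2, higher.

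Of the carrier-family proteins with other symbols, UCP3, an uncoupling protein known from muscle, stood at 2.51, 3.69 and 3.34 CPM in sgCtrl and at 1.51, 1.16 and 2.17 CPM in sgCOX4I1 (log2 fold change -0.93, SE 0.28, adjusted p = 0.103 by edgeR). UCP2, the form known from immune cells, stood at 112 ± 8.38 and 112 ± 10.9 CPM, and UCP1, the form of brown fat, had 0 counts in every library. In the TIM22 pathway, which inserts carriers into the inner membrane, 0 of 10 genes were called, and the smallest p belonged to AGK, a kinase that is also a TIM22 subunit, at 4.52, 4.34 and 4.77 against 6.24, 6.92 and 6.17 CPM (log2 fold change 0.50, adjusted p = 0.135). The groups did not overlap for UCP3, AGK and TOMM70, the outer membrane receptor for carriers, which stood at 99.1, 86.7 and 94.3 against 106, 99.5 and 103 CPM (adjusted p = 0.368).

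Of the outer membrane channels, which let metabolites reach the carriers, 0 of 3 were called and all 3 had log2 fold changes above 0, from 0.13 to 0.16. VDAC2 had the smallest p and stood at 214, 201 and 186 CPM in sgCtrl against 242, 221 and 210 CPM in sgCOX4I1 (adjusted p = 0.325 by edgeR). Of the enzymes of the malate-aspartate shuttle, 0 of 4 were called, and GOT1, the cytosolic aspartate aminotransferase, stood at 51.6, 46.0 and 45.2 against 56.9, 52.0 and 51.5 CPM (log2 fold change 0.17, adjusted p = 0.329). The groups overlapped for both genes. They did not overlap for VDAC1, at 219, 211 and 212 against 241, 238 and 224 CPM (adjusted p = 0.36), or for GOT2, the mitochondrial aspartate aminotransferase, at 46.6, 41.9 and 45.3 against 49.4, 47.0 and 48.4 CPM (adjusted p = 0.499). MCU, TOMM70, VDAC1 and GOT2 are named for this pattern, chosen after their values were seen.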

How the data were processed

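RNA was sequenced from 3 sgCtrl and 3 sgCOX4I1 cultures of Molm13-Cas9+ cells. The authors deposited whole-number counts per gene symbol, not normalized. Their methods name Trimmomatic, Bowtie2 and RSEM on GRCh38.p14, the submitters' processing notes name STAR 2.6.0a and edgeR, and the column names point to STAR with marked duplicates and HTSeq. The strand setting of the counting is not given in the sources used here. Columns were matched to samples by letter and number (C for sgCtrl, K for sgCOX4I1).

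The counts were fitted with edgeR 4.0.16 (R 4.3.3; TMM, filterByExpr, quasi-likelihood test, group as the only term) using the 6 libraries together, and p-values were adjusted over 11861 genes by the Benjamini-Hochberg method, with calls at 0.05. Intervals are 95% from the fitted standard error. DESeq2 1.42.0, limma-voom 3.58.1, other filters and scalings, a replicate block and leaving out each library were alternatives. Canonical transcript and coding lengths were added after seeing the data. Scripts were tested on simulated counts. Each library of a group carries its own numbered guide, so p-values measure the spread between guides and cultures together. The replicate block pairs libraries by number only, as sgCtrl and sgCOX4I1 guides of the same number are different sequences. Replicates differed by more than sampling noise (chi-square per degree of freedom 10.6 to 26.6). Exon lengths come from GENCODE 44, in which all 48 members were matched, and upstream sequences from RefSeq. Reads of named pseudogenes (9 for SLC25A5, 6 for SLC25A6, 5 each for SLC25A1 and SLC25A51, 4 for SLC25A15, fewer for others) may be shared with their parent genes.

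The carriers and the lists of related genes and markers were chosen with earlier results of these data known. Values in every library are given for the 10 carriers with the smallest p, the 5 with the highest length-scaled level and the members of 4 paralog groups, and for related genes that passed or had the smallest p in their list. Other carriers are given by group means. The values of 1 carrier and 1 marker gene are not reported here.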

Additional observations from a re-analysis of the deposited data

How the results depend on the processing

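The number of carriers called was 0 with edgeR, 1 with DESeq2, raw library sizes or no filter on low counts (SLC25A32 each time), and 0 to 2 when a library was left out (2 without sgCtrl #1). At an unadjusted p it was 8, 5 with DESeq2 and 4 to 6 with a library left out. Non-overlapping carriers numbered 9, and 11 to 14 with a library left out, where fewer values have to be separate. For these 2 counts the share over all genes is given only for the main fit. The counts in other settings can therefore not be read against all genes. Related genes called numbered 1, and 0 to 2 with a library left out. All genes called numbered 247, 466 with DESeq2, 537 with no filter, and 24 to 561 with a library left out, the lowest without sgCtrl #2 and the highest without sgCtrl #1. COX4I1 passed with no filter (-1.20, adjusted p = 2.05e-04 by edgeR), with limma-voom (-1.40, adjusted p = 0.0291), and without sgCtrl #1, sgCtrl #3 or sgCOX4I1 #2. It did not pass with DESeq2 (adjusted p = 0.234), raw library sizes (0.0598), at least 10 counts in every library (0.0522), or without sgCtrl #2 (0.272), sgCOX4I1 #1 (0.0773) or sgCOX4I1 #3 (0.125). Its log2 fold change was -1.89 to -0.95 over the 6 leave-one-out fits. The cause of these changes was not tested.

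Deviations of same-numbered libraries correlated over genes at 0.38 for #1, -0.024 for #2 and 0.29 for #3. In both groups #1 and #3 correlated best with their own number, and #2 did not. The replicate numbers thus matched for some libraries and not for all, and the cause was not tested. With the number as a replicate block, 3 of the 39 carriers (SLC25A1, SLC25A15 and SLC25A32) and 4 of 34 related genes were called. Of all 11861 genes, 1408 were called in that fit. COX4I1 passed with the block, at a log2 fold change of -1.39 (adjusted p = 1.76e-04 by edgeR).

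Near-zero log2 fold changes reversed in sign. SLC25A28 was 0.00923 with raw library sizes, 0.000979 with no filter, 0.00120 with limma-voom, 0.00140 with the block and -0.0477 to 0.0784 with a library left out. SLC25A13 was 0.00311 with raw library sizes and -0.0859 to 0.0442 with a library left out. With a library left out, SLC25A6 was -0.0317 (without sgCOX4I1 #2) to 0.0379 and SLC25A4 -0.0151 (without sgCtrl #3) to 0.224. Of the 5 carriers with the highest length-scaled level, 4 were the same with the longest or canonical transcript and 3 with coding length. The median log2 fold change of the carriers stayed between 0.00921 and 0.0610 with a library left out. Carriers under 1 CPM could not be compared at this depth.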
